A study of Mus musculus with 8 samples.

Results

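The Toll-like receptors and their adaptors were followed through 9 genes: the receptors *Tlr1*, *Tlr2*, *Tlr4*, *Tlr6*, *Tlr7* and *Tlr9*, the co-receptors *Cd14* and *Ly96*, and the adaptor *Myd88*. They were chosen by name, 9 of the 23284 gene symbols in the tables, and each was found in both tables. The data were RNA-seq libraries of mouse hematopoietic progenitor cells made to ask how loss of PCGF1, a subunit of Polycomb repressive complex 1, alters transcription. There were 8 libraries, with 2 control and 2 *Pcgf1*-KO libraries for each of 2 cell types, all labelled as bone marrow of strain B6CBAF1/J and as passage 15 to 18.

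IdHPCs are progenitors grown from Lineage-negative, Sca1-positive, Kit-positive (LSK) bone marrow cells that carry a virus for human ID3, an inhibitor that holds them from lineage commitment. They were kept on TSt-4 stromal cells with IL-7, SCF and Flt3L, so that RNA of the feeder cells can enter these libraries. LMPPs, lymphoid-primed multipotent progenitors, came from *Pcgf1* fl/fl mice as controls and, for the KO, from mice that also carry ERT2-Cre, and were cultured on the same feeder cells with 4-OHT, the tamoxifen metabolite that activates ERT2-Cre. *Pcgf1*-KO IdHPCs were also treated with 4-OHT. The control IdHPC libraries are labelled *Pcgf1* fl/fl. For them the sources used here state no treatment, while in another experiment of the study control IdHPCs were given ethanol.

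Toll-like receptors sense microbial molecules. TLR2 pairs with TLR1 or TLR6 at the cell surface to bind bacterial lipoproteins, TLR4 binds lipopolysaccharide together with MD-2 (the product of *Ly96*) and CD14, and TLR7 and TLR9 sit in endosomes, where they bind single-stranded RNA and unmethylated CpG DNA. All of these receptors signal through MYD88 to NF-kB and to interferon regulatory factors, and they are best known from macrophages, dendritic cells and B cells, although early progenitors also carry some of them.

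The deletion removes *Pcgf1* exons 2 to 7, so reads on those rows of the tables check each library. The IdHPC controls held 193 and 173 reads there and the *Pcgf1*-KO IdHPCs 15 and 15. Among the LMPPs, the libraries labelled control 1 and KO 1 held 84 and 76, while the libraries labelled control 2 and KO 2 held 0 and 0, which allows at most 3 reads in each. The *Pcgf1* reads of the LMPPs thus went against the labels of control 2 and KO 1. Accordingly, 2 LMPP comparisons are given, one by label, and one of the 2 libraries without reads on these rows (labelled control 2 and KO 2) against the 2 with reads (labelled control 1 and KO 1). The second is a split by *Pcgf1* reads and not by labelled genotype. It coincides with the replicate number, so the *Pcgf1* reads and anything else that set the replicates apart cannot be told apart.

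Libraries held between 9618849 and 25302206 reads on distinct exon rows, and 1 read was worth between 0.0287 and 0.0757 CPM (the count scaled to a common library total). The LMPP libraries expressed *Flt3* at 366 to 440 CPM and *Cd34* at 721 to 800.1 CPM. Sums of 20 feeder markers lay between 3186 and 3655 CPM in control IdHPCs and between 6060 and 7485 CPM in *Pcgf1*-KO IdHPCs. In the LMPPs they lay between 55.2 and 66.9 CPM, with the collagen gene *Col3a1* at 0 reads throughout. *Pcgf1*-KO 2 IdHPCs had 29.9% of reads on the 3′ row of the genes, against 24.7% to 26.5% in the other IdHPC libraries.

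In IdHPCs no member passed the limma test. *Tlr9*, lower in both *Pcgf1*-KO libraries, was nearest to it and passed by the exactTest of edgeR. In LMPPs no member passed by label, and neither did any other of the 12153 genes tested. Between LMPPs without and with reads on *Pcgf1* rows 2 to 7, both endosomal receptors, *Tlr9* and *Tlr7*, were lower in the libraries without, by 5.08-fold and 2.96-fold of the mean CPM. The other 6 members that could be tested did not pass. Of all genes, 17.2% were called in this comparison, 7.08% lower and 10.1% higher. Since the RNA is from bulk cells, fewer cells that express a gene and less of its RNA per cell cannot be told apart.

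**Figure D1:**
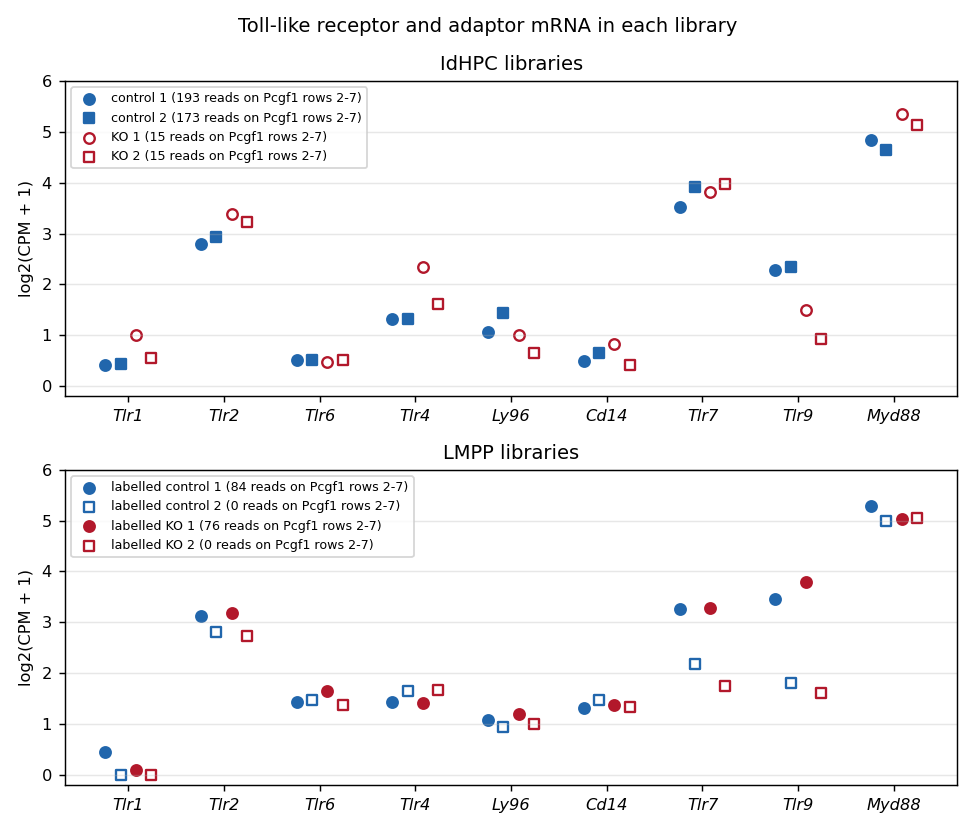
Level of the 9 members in each library as log2(CPM + 1), IdHPCs above and LMPPs below. Blue and red mark libraries labelled control and KO, circles and squares replicates 1 and 2, and open symbols the libraries with 15 reads or fewer on *Pcgf1* rows 2 to 7. In LMPPs the open symbols of *Tlr7* and *Tlr9* lie below the filled ones whatever their color, while for *Cd14* and *Myd88* the 2 kinds overlap.

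Per kb of exon, which allows genes to be compared, *Myd88* was the most abundant member in both cell types, with 15.98 ± 3.54 CPM per kb in IdHPCs (SD, n = 4 libraries) and 17.0 ± 1.71 in LMPPs (SD, n = 4). In IdHPCs *Tlr7* (3.37 ± 0.477) and *Tlr2* (2.53 ± 0.525) followed, with ranges of 2.71 to 3.79 and 1.98 to 3.14 that overlapped. *Ly96* (1.81 ± 0.767) reached 2.80 and so overlapped with both. Below them came *Tlr9* at 0.767 ± 0.447, *Tlr4* at 0.560 ± 0.300 and *Cd14* at 0.330 ± 0.126, whose ranges overlapped from one to the next. *Tlr1* (0.205 ± 0.122) and *Tlr6* (0.160 ± 0.008) were lowest, and their ranges overlapped. Neighbouring steps of this order were not separate either, since *Ly96* overlapped with *Tlr9* and *Tlr4*, and *Cd14* with *Tlr1*. These spreads take in both genotypes, and *Tlr9* spanned 0.258 to 1.16, with both KO libraries at the low end.

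In LMPPs the second place was shared by genes whose ranges overlapped: *Tlr2* (2.27 ± 0.404 CPM per kb), *Tlr9* (1.98 ± 1.57), *Ly96* (1.79 ± 0.280) and *Tlr7* (1.49 ± 0.860). *Cd14* (1.01 ± 0.0875), *Tlr6* (0.691 ± 0.0894) and *Tlr4* (0.470 ± 0.0700) had ranges that stood clear of each other, though those of *Tlr9* and *Tlr7* reached down to *Tlr6*. *Tlr1* was lowest at 0.0412 ± 0.0663, with 5 reads in labelled control 1, 1 in labelled KO 1 and 0 in the other two libraries. These spreads pool libraries that differed: *Tlr9* was at 2.89 and 3.72 CPM per kb with reads on *Pcgf1* rows 2 to 7, above *Tlr2*, and at 0.713 and 0.589 without, below *Cd14*. The 2 tables were normalized separately and no test was made across them.

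*Tlr2*, the shared partner of the lipoprotein receptors, lies at chr3:83640195-83645689 (minus strand) of mm9, the build of the tables. In IdHPCs it stood at 5.97 and 6.68 CPM in the controls and at 9.45 and 8.38 CPM in the KO libraries. The groups did not overlap, but the log2 fold change of 0.44 (SE 0.27) did not pass (limma, Benjamini-Hochberg adjusted p = 0.490). Its partners were weaker. *Tlr1* was at 0.337 and 0.344 CPM in control IdHPCs and at 1.02 and 0.471 CPM in KO IdHPCs, between 10 and 29 reads per library, and its log2 fold change of 0.36 (SE 0.32) did not pass either (limma, adjusted p = 0.627). It reached the minimum of 1 CPM for a test in KO 1 alone, the higher group. *Tlr6*, which lies beside *Tlr1* on chromosome 5, stayed between 0.386 and 0.430 CPM in all 4 IdHPC libraries and was below the minimum of 1 CPM needed for a test.

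In LMPPs *Tlr2* was at 7.67 and 8.10 CPM in the libraries with reads on *Pcgf1* rows 2 to 7 and at 6.04 and 5.60 CPM in those without. That is a log2 fold change of -0.38 (SE 0.14), below 0 where the IdHPC value was above it. It did not pass (limma, adjusted p = 0.107). *Tlr6* lay between 1.59 and 2.13 CPM, with overlapping groups in either comparison. *Tlr1*, with 6 reads over the LMPP libraries, was not tested.

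The lipopolysaccharide receptor *Tlr4* (chr4:66488618-66591318, plus strand) had the largest positive difference among members in IdHPCs on the log2(CPM + 1) scale. Its control libraries stood at 1.5 and 1.49 CPM and its KO libraries at 4.07 and 2.07 CPM. The first KO library stood well above the second, and the log2 fold change of 0.66 (SE 0.33) did not pass (limma, adjusted p = 0.393). In LMPPs *Tlr4* was at 1.70 and 1.65 CPM with reads on *Pcgf1* rows 2 to 7 and at 2.13 and 2.20 CPM without, a log2 fold change of 0.24 (SE 0.18) that did not pass (limma, adjusted p = 0.420).

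*Ly96*, which encodes the lipopolysaccharide-binding partner of TLR4, rested on few reads. Control IdHPCs held 36 and 59 reads (1.10 and 1.69 CPM) and KO IdHPCs 29 and 12 (1.02 and 0.565 CPM). One of its exons stands in the table at different lengths with similar reads, on rows 5 and 6, so that shared reads entered the sum more than once. On row 5 alone the controls held 7 and 18 reads and the KO libraries 2 and 0, a row picked out after its values were seen. The log2 fold change of the whole gene was -0.42 (SE 0.32) and did not pass (limma, adjusted p = 0.564). *Cd14*, which hands lipopolysaccharide to the TLR4 complex, was between 0.329 and 0.773 CPM in IdHPCs and was not tested there. In LMPPs it lay between 1.47 and 1.78 CPM, and its log2 fold change was -0.04 (SE 0.29) by label and 0.07 (SE 0.19) by *Pcgf1* reads.

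*Tlr9*, the receptor for unmethylated CpG DNA, lies at chr9:106124929-106129207 (plus strand, mm9) and has 2 exon rows, of which the second held nearly all reads. In IdHPCs it was at 3.89 and 4.04 CPM in the controls (on 127 and 141 reads), while the KO libraries had 1.83 and 0.894 CPM (on 52 and 19 reads). The control mean was 2.92-fold the KO mean, and no KO library came near a control. On the log2(CPM + 1) scale the difference was -1.10 (SE 0.31, n = 2 against 2) and did not pass (limma, adjusted p = 0.131, unadjusted p = 0.00529). On whole reads recovered from the CPM, the exactTest of edgeR, which the methods of the study name, gave a log2 fold change of -1.53 that passed (adjusted p = 0.0465). The edgeR quasi-likelihood test (adjusted p = 0.156) and DESeq2 (adjusted p = 0.0961) did not call it. Without *Pcgf1*-KO 1 the limma value passed at -1.39 (adjusted p = 0.0359), but with 1 KO library left the spread came from the 2 controls alone, and calls over all genes went from 65 to 825. Leaving out KO 2, control 1 or control 2 it did not (limma, adjusted p = 0.230, 0.404 and 0.903).

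In LMPPs *Tlr9* was at 10.03 CPM in labelled control 1 and at 12.9 CPM in labelled KO 1, the libraries with reads on *Pcgf1* rows 2 to 7. It was at 2.47 CPM in labelled control 2 and at 2.04 CPM in labelled KO 2, the libraries without. The split is visible within each label, since control 2 lies below control 1 and KO 2 below KO 1. By label the log2 fold change was 0.07 (SE 0.82; limma, adjusted p = 1). Between the libraries without and with these reads it was -1.93 (SE 0.17, n = 2 against 2; limma, adjusted p = 9.0e-05), the largest difference of any member.

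*Tlr7*, the receptor for single-stranded RNA, lies at chrX:163742861-163768490 (minus strand, mm9). Its values in LMPPs divided the libraries in the same way, with 8.63 and 8.72 CPM in labelled control 1 and KO 1 and 3.51 and 2.35 CPM in labelled control 2 and KO 2. Each library without reads on *Pcgf1* rows 2 to 7 was below each library with them, a log2 fold change of -1.32 (SE 0.18; limma, adjusted p = 0.00089). By label it was -0.21 (SE 0.59; limma, adjusted p = 1). In IdHPCs *Tlr7* was at 10.6 and 14.2 CPM in the controls and at 13.1 and 14.8 CPM in the KO libraries. There the groups overlapped, and the log2 fold change was 0.17 (SE 0.27; limma, adjusted p = 0.803).

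The sum over *Tlr7* rows hid a difference between its rows in IdHPCs, which was picked out after the values were seen and was not tested. Row 1, at the 3′ end, held 312 and 455 reads in the controls and 357 and 301 in the KO libraries. Row 3, at the 5′ end, held 22 and 23 reads in the controls and 6 and 3 in the KO libraries. The row with most of the reads was thus alike in both groups, while the few reads of the first exon were fewer in both KO libraries. In LMPPs row 3 held 0 to 7 reads.

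*Myd88*, the adaptor of all these receptors, lies at chr9:119245052-119250529 (minus strand, mm9). It was at 27.8 and 23.9 CPM in control IdHPCs and at 39.6 and 34.02 CPM in KO IdHPCs. The groups did not overlap, but the log2 fold change of 0.50 (SE 0.24) did not pass (limma, adjusted p = 0.370). In LMPPs it lay between 31.0 and 38.3 CPM with overlapping groups, at -0.11 (SE 0.16) by label and -0.14 (SE 0.11) by *Pcgf1* reads.

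Promoter sequences, the 250 bases before a gene's start in RefSeq (GRCm38.p6, a later build than that of the tables), were matched by symbol for 5 of the 9 members, *Tlr1*, *Tlr2*, *Tlr6*, *Tlr9* and *Myd88*. Since PCGF1 complexes are known to gather at CpG-rich promoters through KDM2B, the letters CG were counted in them. *Tlr9*, the member that differed most, held 0, as did 7.87% of 32851 promoters. Whether the count goes with the differences was not tested, and *Tlr7*, the other member called in LMPPs, had no matched promoter. *Myd88*, the most abundant member, held 9 and *Tlr2* 11, against a median of 6 and quartiles of 2 and 16 over all promoters. *Tlr1* has promoters with 1 and 8 and *Tlr6* with 4 and 6. The letters AGGAAG, a core bound by ETS factors, were looked for on both strands. They occurred in the *Tlr9*, *Tlr2* and 1 each of the *Tlr1* and *Tlr6* promoters, and in 29.5% of all promoters. Both sequences that follow are shown to set the promoter without any CG beside that of the adaptor; capitals mark each CG, *Tlr9* lies at chr9:106222348-106222597 (plus strand) and *Myd88* at chr9:119340019-119340268 (minus strand), each written 5′ to 3′ toward the start.
Tlr9: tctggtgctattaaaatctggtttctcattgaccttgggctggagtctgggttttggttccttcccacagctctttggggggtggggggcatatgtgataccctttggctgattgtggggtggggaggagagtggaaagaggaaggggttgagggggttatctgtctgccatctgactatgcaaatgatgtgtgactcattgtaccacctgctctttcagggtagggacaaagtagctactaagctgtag
Myd88: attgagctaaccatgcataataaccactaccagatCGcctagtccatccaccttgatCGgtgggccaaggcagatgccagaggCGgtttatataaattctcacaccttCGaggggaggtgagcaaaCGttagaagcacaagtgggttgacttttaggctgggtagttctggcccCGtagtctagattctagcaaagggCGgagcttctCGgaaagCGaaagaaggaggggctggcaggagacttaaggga

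**Figure D2:**
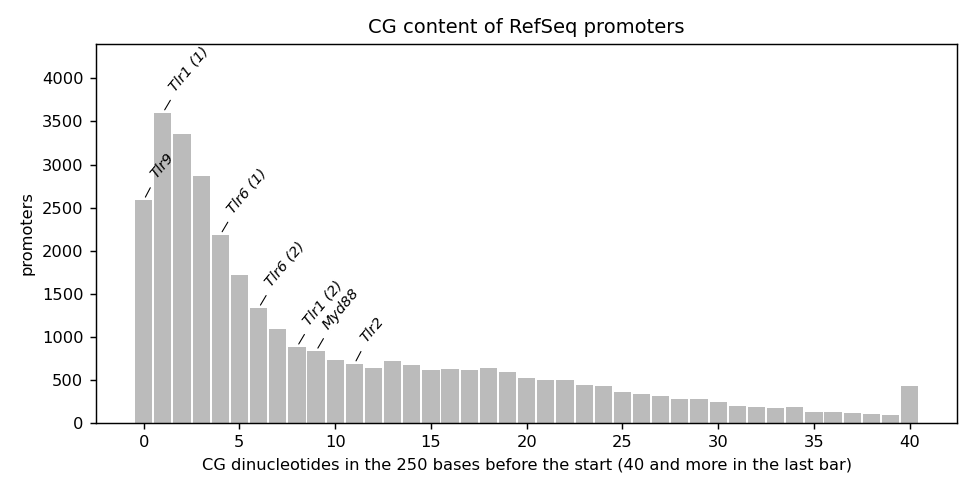
Number of RefSeq promoters (GRCm38.p6) by their count of CG in the 250 bases before the start, with the 5 matched members marked at their counts; numbers in brackets tell apart promoters of 1 gene. *Tlr9* is in the first bar, with 0, while *Tlr2* holds 11, above the median of 6.

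**Figure D3:**
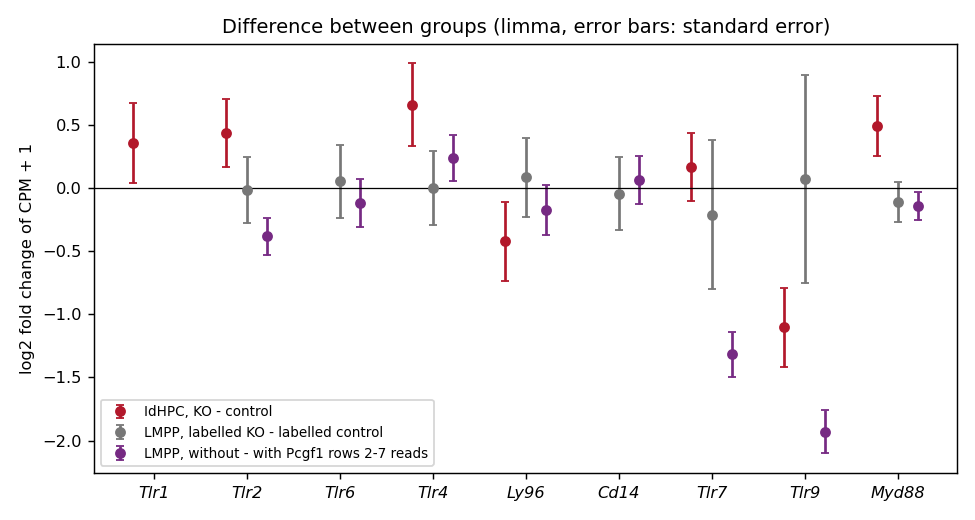
Difference of each member in the 3 comparisons, as the log2 fold change of CPM + 1 with its standard error from limma, 2 libraries against 2. Members below the filter on low values have no point, and the labelled LMPP comparison has wide bars for *Tlr7* (SE 0.59) and *Tlr9* (SE 0.82) because each label holds 1 high and 1 low library.

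Counted over the list, 7 of the 9 members could be tested in IdHPCs and 0 were called by limma, beside 0.53% of the 12273 genes tested. At an unadjusted p under 0.05 there was 1 of the 7, beside 14.5% of genes. By exactTest 1 of the 7 was called, beside 5.13% of genes. The groups of 6 of the 7 did not overlap, beside 46.9% of all genes, and *Tlr1* was among these 6, a member that was tested only through its high KO library. By label, 8 members were tested in LMPPs and 0 were called by limma, edgeR or DESeq2, beside 0.0% of the 12153 genes tested. At an unadjusted p under 0.05 there were 0 of the 8, beside 0.0165% of genes. Each label held 1 library with and 1 without reads on *Pcgf1* rows 2 to 7. The spread within labels was therefore wide, and the absence of calls cannot show that the members were alike. The groups of 0 of the 8 stood apart, against 12.2% of genes. By *Pcgf1* reads 2 of the 8 were called, both lower, beside 17.2% of genes called, 7.08% lower and 10.1% higher. The exactTest called the same 2 members, beside 21.3% of genes. The groups of 5 of the 8 did not overlap, beside 56.6% of genes. These 5 include *Ly96*, which reached the minimum for a test only in the higher group. The share of members called in either direction is near the background. The share called lower lies above the 7.08% of all genes, but it rests on 2 members and was not tested. The median log2 fold change of the tested members by limma was -0.16 against -0.02 over all genes tested. *Tlr7* and *Tlr9* kept their direction and their call in every alternative in which they could be tested. Without the row at the 3′ end of each gene, which holds most of their reads, they fell below the filter.

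The genes with the most similar course over the 8 libraries were found by the distance between log2(CPM + 1) profiles centred within each table, among 11248 genes tested in both. The nearest to *Tlr9* was *Oas3*, which encodes an oligoadenylate synthetase induced by interferon, at a distance of 0.472 against a size of 2.27 of the *Tlr9* profile itself. The nearest to *Tlr7* was *Tgtp2*, an interferon-induced GTPase gene, at 0.243 against a size of 1.39. For the other members the nearest were *Dennd2c* (*Tlr1*), *Litaf* (*Tlr2*), *Galnt3* (*Tlr4*), *Uck1* (*Tlr6*), *Ube2j1* (*Cd14*), *Cyth1* (*Ly96*) and *Gtf3c6* (*Myd88*), at distances of 0.0889 to 0.194. The sizes of these profiles were 0.206 to 0.872.

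A list of 80 further pathway genes was set beside the members. It held 6 other Toll-like receptors, of which 0 reached the minimum for a test in IdHPCs, and 2 were tested in LMPPs and 0 called by limma in either comparison. Of the 2, *Tlr13*, reached the minimum in labelled control 1 alone (14 reads, against 5, 2 and 1 in the other LMPP libraries), so that its call by exactTest in the comparison by *Pcgf1* reads is not taken as a result. In IdHPCs 59 were tested and 0 were called by limma, with 7 at an unadjusted p under 0.05 (14.5% of all genes tested were). Both exactTest and DESeq2 called *Ccl3* higher and *Irf8* lower, beside 5.13% of all genes by exactTest and 497 of 12273 by DESeq2. The median log2 fold change by limma was -0.08, against 0.01 over all genes. The transcription factor gene *Irf8* had the smallest p, at 38.1 and 47.1 CPM in the controls and at 20.6 and 22.6 CPM in the KO libraries, a log2 fold change of -0.94 (SE 0.24; limma, adjusted p = 0.104, exactTest 0.0163, DESeq2 0.0099). The chemokine gene *Ccl3* was at 1.78 and 1.52 CPM in the controls and at 3.58 and 8.66 CPM in the KO libraries, a log2 fold change of 1.33 (SE 0.37; limma, adjusted p = 0.125, exactTest 0.0115, DESeq2 0.0176). *Cxcl1*, another chemokine gene, and *Ctsb*, a lysosomal protease gene, had the next smallest p in that direction, with log2 fold changes of 0.90 and 0.49. *Pik3ap1*, an adaptor to PI3-kinase, and *Ctss*, the protease that trims endosomal receptors, were next by p in the other, at -0.71 and -0.67. None of these 4 passed by limma.

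By LMPP label, 63 of the 80 were tested and 0 were called by limma, edgeR or DESeq2. At an unadjusted p under 0.05 there were 0, beside 0.0165% of all genes. The smallest p among higher genes belonged to *Tlr12* (log2 fold change 0.38), *Ube2n* (0.14) and *Irf5* (0.13). Among lower genes it belonged to *Tlr13* (-0.32, on 22 reads in all), *Tbk1* (-0.11) and *Cyld* (-0.10).

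By *Pcgf1* reads, 17 of the 63 were called by limma, 16 lower and 1 higher in LMPPs without reads on rows 2 to 7, beside 17.2% of all genes called, 7.08% lower and 10.1% higher. By exactTest 19 were called lower and 6 higher, beside 21.3% of all genes. The 19 include *Tlr13*, whose call is not taken as a result. The median log2 fold change by limma was -0.11 against -0.02 over all genes. The accessory proteins held 6 of these 17 calls, with 6 of 10 lower and a median of -0.80. *Unc93b1*, which carries TLR7 and TLR9 to endosomes, was at 219 and 237 CPM in the libraries with these reads and at 123 and 122 CPM in those without, a log2 fold change of -0.89 (SE 0.08; limma, adjusted p = 7.6e-05). Among the protease genes of this list, *Ctss* and *Lgmn* were called lower, while *Ctsb* was not (log2 fold change -0.24, limma, adjusted p = 0.0579). *Ctss* went from 55.8 and 50.9 CPM to 10.6 and 15.0 CPM, and *Lgmn* from 22.8 and 20.9 CPM to 6.39 and 5.30 CPM. *Itgam*, an integrin gene of myeloid cells, *Lbp*, the lipopolysaccharide binding protein, and *Ly86*, the partner of CD180, were lower by 2.48-fold, 1.83-fold and 1.92-fold.

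Farther down the pathway, 1 of 19 adaptor and kinase genes was called, *Ikbke* (log2 fold change -0.69), a kinase upstream of interferon. Of 12 transcription factors, 4 were lower, where 7.08% of all genes were. Calls in the lists of adaptors, inhibitors and response genes are to be read against the same share. *Irf7*, which acts below TLR7 and TLR9, was at 18.8 and 20.3 CPM with reads on *Pcgf1* rows 2 to 7 and at 6.39 and 4.31 CPM without, a log2 fold change of -1.71 (SE 0.17; limma, adjusted p = 0.00015). *Irf8* was at 545 and 557 CPM with and at 355 and 338 CPM without. *Nfkb1* and *Jun* were lower by 1.34-fold and 1.39-fold.

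Of 13 inhibitors, 4 were lower and 1 was higher. *Trim30a*, which limits signaling to NF-kB, was 2.79-fold lower, *Socs1* 2.01-fold, *Il1rl1* 1.87-fold and *Nfkbia* 1.45-fold. *Tnfaip3*, the ubiquitin-editing enzyme A20, was at 9.88 and 9.06 CPM with reads on *Pcgf1* rows 2 to 7 and at 15.3 and 13.02 CPM without, the 1 pathway gene that limma called higher (adjusted p = 0.0246). Of 7 response genes tested, all 7 had a fold change below 0 (53.0% of all genes did) and 1 was called, the chemokine gene *Ccl5* (2.17-fold lower). *Il1rl1*, *Jun*, *Socs1*, *Ccl5* and *Tnfaip3* lost their call in 1 or more alternatives, and between 12 and 17 of the 17 calls were kept in each.

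**Figure D4:**
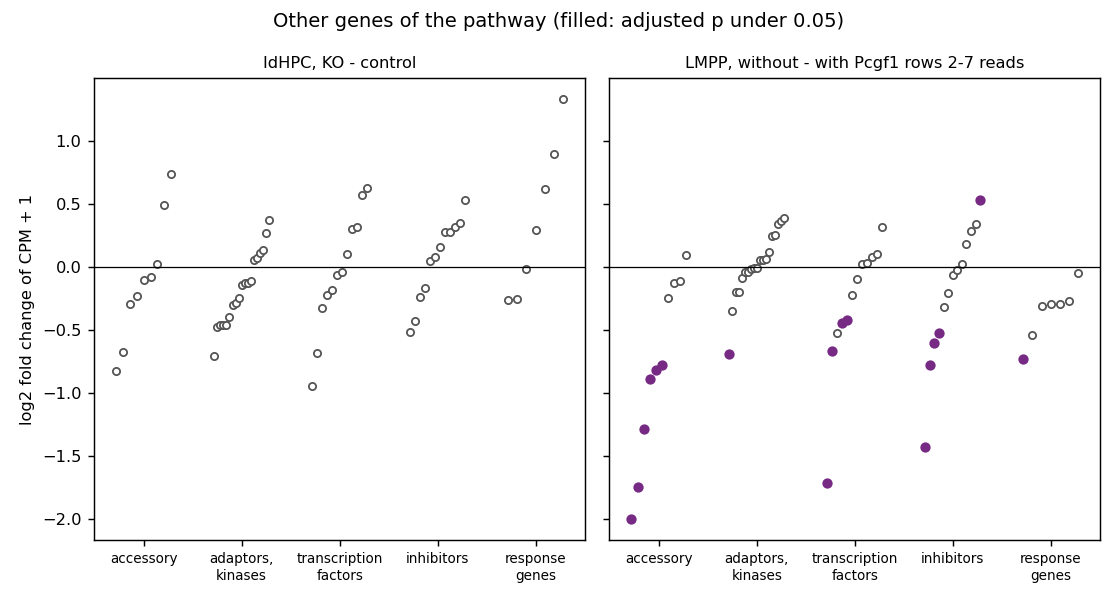
Log2 fold change of CPM + 1 of the pathway genes tested, by list, in IdHPCs on the left and between LMPPs without and with reads on *Pcgf1* rows 2 to 7 on the right. Each point is 1 gene and filled points have a limma adjusted p under 0.05. Filled points appear only on the right, where 6 of 10 accessory genes are among them, and 2 tested Toll-like receptors outside the members are not drawn.

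Some markers of other cells differed in the same comparisons, not all in the direction of the members. *Itgam* stands among both the accessory genes and the markers, so that these are not fully separate. Between LMPPs without and with reads on *Pcgf1* rows 2 to 7, 8 of the 10 mature myeloid markers tested had a fold change below 0 (53.0% of all genes did) and 4 were called lower by limma (7.08% of all genes were), among them *Csf1r* (114 and 118 CPM with, 52.9 and 49.2 CPM without). Their summed level was 2660 to 2675 CPM with these reads and 2380 to 2459 CPM without, most of it *Mpo*, which was at 1874 to 1996 CPM. Of 6 dendritic cell markers, 5 were below 0 and 2 were called lower by limma, *Tcf4* and *Siglech*, a receptor gene of plasmacytoid dendritic cells, and their summed level was 291 to 298 CPM with and 249 to 252 CPM without. *Siglech* was at 12.2 and 12.8 CPM with and at 6.21 and 4.92 CPM without. In IdHPCs *Siglech* was at 3.86 and 2.61 CPM in the controls and at 0.386 and 0.706 CPM in the KO libraries, whereas the other two dendritic cell markers tested had fold changes above 0, and the summed level was 76.5 to 94.3 CPM in the controls and 112 to 137 CPM in the KO libraries. In IdHPCs all 17 feeder markers tested had a fold change above 0 (6203 of 12273 genes did), with a median of 1.004. Of these markers 2 were called by limma, 9 by exactTest and 8 by DESeq2. Over all genes, 0.53% were called by limma, 5.13% by exactTest and 497 of 12273 by DESeq2. The other IdHPC lists are to be read against the same shares. Of 5 myeloid, 3 dendritic cell and 8 B cell markers and 1 erythroid marker tested in IdHPCs, 0 were called by limma, while exactTest called 1 myeloid marker higher and, as did DESeq2, 1 dendritic cell marker higher and 1 lower, *Siglech*, which passed the filter only through the controls. Between the LMPPs, by limma, 1 of 2 B cell markers was called lower (*Blnk*), 1 of 4 erythroid and mast cell markers higher, and of 6 feeder markers 1 higher and 2 lower. Of all genes, 10.1% were called higher and 7.08% lower. The part of these cells in the values of the members was not tested.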

How the data were processed

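RNA-seq of 8 libraries was analysed, 4 of IdHPCs and 4 of LMPPs, grouped by their labels. Poly(A) RNA was sequenced, and the authors deposited CPM, reads scaled to each library total, in 1 table per cell type on mm9. The methods of the study name HISAT2, Rsubread and edgeR, and the labels name TopHat2 (version 2.0.13) and edgeR. Both tables list exons (284716 rows, 23284 symbols). Rows with the symbol and the values in all 8 libraries of the row before them were counted once, and rows were summed per symbol. Dividing each value by the smallest step of its library recovered whole reads (100% of values, tolerance 0.01). Reads that span exons may count on each, and there are no molecular identifiers, so limits from reads cover counting error only. No column was left unassigned.

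Each table was tested alone, 2 libraries against 2, with limma (version 3.58.1, R 4.3.3) on log2(CPM + 1), the prior variance following mean expression. A gene was tested where any library reached 1 CPM, with Benjamini-Hochberg adjustment over all of them and a threshold of 0.05. The pseudocount of 1 understates fold changes of low genes. The study describes the replicates as biologically independent, and p-values rest on the spread between 2 libraries a group. Alternatives were a pseudocount of 0.1, other filters and scalings, no trend, a replicate block, each library left out, all rows summed, sums without the 3′ row, and edgeR (version 4.0.16; exactTest, quasi-likelihood) and DESeq2 (version 1.42.0) on the recovered reads. Scripts were tested on simulated data.

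The members, pathway lists and marker lists were chosen with earlier results of these data known. Named beside the 9 members were pathway genes past the threshold, the 3 higher and 3 lower with the smallest p in each comparison, and the nearest profile of each member. Gene positions are those of the GENCODE annotation of mm9.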

Additional observations from a re-analysis of the deposited data

Results flagged for a closer look

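The values of *Tlr2* lay in opposite directions in the 2 cell types. Its log2 fold change was 0.44 in *Pcgf1*-KO IdHPCs against controls, with both KO libraries above both controls. It was -0.38 in LMPPs without reads on *Pcgf1* rows 2 to 7 against those with them, with both libraries without below both with. Neither difference passed the test, and the difference between them was not tested.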

How the results depend on the processing

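In IdHPCs the count of called genes (65 in all, 33 higher, 32 lower) depended on the test: it was 629 (466 and 163) by exactTest, 124 (77 higher) by quasi-likelihood, 497 (344 and 153) by DESeq2, 166 (104 and 62) after median ratio scaling, 0 (0 and 0) without a filter, and 3 (0 and 3) without the 3′ row. TMM scaling gave 51 higher and all rows summed 19 higher. Same-numbered libraries deviated together with a correlation of 0.147 in IdHPCs and 0.705 in LMPPs, but with 2 pairs and no label of a shared source the numbers were not taken as pairs. The replicate block gave 669 (484 and 185) in IdHPCs and 3 (3 higher) between labelled LMPPs, and with it 1 member was called, *Tlr9* in IdHPCs (limma, adjusted p = 0.0258), as it was by exactTest. Leaving out each library gave 14 genes (without control 2) to 825 (without KO 1) in IdHPCs, 0 to 234 higher and 14 to 591 lower, with 0 to 1 members. The cause of these shifts was not tested.

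Between LMPPs without and with reads on *Pcgf1* rows 2 to 7 (2089 genes, 1229 higher, 860 lower), sums without the 3′ row gave 1098 (707 and 391) and 0 members, because *Tlr7* and *Tlr9* fell below the filter, and DESeq2 gave 547 lower. Leaving out each library gave 1291 (without labelled control 2) to 1947 genes, 747 to 1211 higher and 544 to 736 lower.

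Where the log2 fold change of a member turned sign, limma had not called it in that comparison. *Tlr7* in IdHPCs was -0.38 without the 3′ row and -0.0233 to 0.37 with a library left out. By LMPP label *Tlr2* was 0.0072 (exactTest), 0.0064 (quasi-likelihood), 0.0059 (DESeq2) and 0.034 (without the 3′ row). With each LMPP library left out, labelled values ran from -0.24 to 0.22 (*Tlr2*), -0.13 to 0.14 (*Tlr4*), -0.081 to 0.19 (*Tlr6*), -0.98 to 0.56 (*Tlr7*), -1.02 to 1.17 (*Tlr9*), -0.13 to 0.041 (*Cd14*), -0.0195 to 0.20 (*Ly96*) and -0.26 to 0.0395 (*Myd88*), and *Cd14* by *Pcgf1* reads from -0.00683 to 0.14. Without division by length, 6 of 18 ranks of members by level were kept.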
